A study of Mus musculus with 292 samples.

Results

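The difference in mean expression level between striatum and hypothalamus was measured in 55 mice that gave a library of each tissue, 110 libraries out of 292 in the series. Libraries were joined by the mouse code (a CRM number) in their labels, and the level of each gene was compared between the tissues within each mouse, over all times of day, without regard to its rhythm. The mice were wild-type C57BL/6J males aged 26 weeks, with no treatment named in the labels. Both groups shared strain, sex and age. The libraries of a mouse often carry different L codes in their labels, whose meaning is not stated, and with that code as a covariate 6950 genes were higher and 6813 lower in striatum. The striatum (corpus striatum) came from the right hemisphere, and the hypothalamus label names no side. Tissue was frozen on dry ice after removal, total RNA was extracted, and messenger RNA was sequenced. Samples were taken every 3 h over 36 h, and zeitgeber time (ZT) is the time of day in hours as labelled. Each mouse was sampled at 1 time: 8 mice at ZT0, 7 at ZT3, 11 at ZT6, 7 at ZT9, 11 at ZT12, 2 at ZT15, 4 at ZT18 and 5 at ZT21. Of these, 31 mice were taken at 0 to 21 h (the first cycle) and 24 other mice at 24 to 36 h (the second cycle). The tables hold 60 striatum and 77 hypothalamus libraries. The rule left out 4 of them, striatum ZT21 replicate 3 and ZT3 replicate 5 and hypothalamus ZT0 replicate 9 and ZT9 replicate 9, and 3 striatum and 20 hypothalamus libraries had no partner from the same mouse. Gene counts summed to 28742584 to 43424559 per striatum library and to 29242990 to 50009419 per hypothalamus library.

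The striatum is the input nucleus of the basal ganglia and is built mainly of GABAergic projection neurons, which receive glutamate from cortex and thalamus and dopamine from the midbrain. These neurons come in a direct-pathway kind, which carries the D1 dopamine receptor, and an indirect-pathway kind, which carries the D2 receptor, and both signal through cyclic AMP and the phosphoprotein DARPP-32. The hypothalamus is a mosaic of small nuclei whose neurons make peptides that govern the pituitary, feeding, water balance, sleep and reproduction. Its neurons keep the transcription factors that set their identity in development, and many release glutamate rather than GABA.

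Most libraries carried the markers of their labelled tissues, but the striatum libraries were far from uniform and several were poor in striatal markers. The summed level of 20 genes of striatal projection neurons was 1404, 6303 and 23972.5 TMM-scaled CPM (read counts per library total, adjusted by the trimmed mean of M-values) in the lowest, median and highest striatum library, and 1041, 1205 and 1420 CPM in hypothalamus. The striatum sum was the higher one in all 55 mice, yet it ran over a far wider range than in hypothalamus, and 1 striatum library lay at or under the highest hypothalamus library. In 10 striatum libraries the sum was under 2 times the hypothalamus median. Slc17a6, the vesicular glutamate transporter of subcortical neurons, reached the hypothalamic range in 10 striatum libraries, and the summed thalamic markers ran from 52.0 through 92.7 to 902 CPM in striatum against 37.3, 48.7 and 144 CPM in hypothalamus. The library labelled striatum ZT6 replicate 5 went against its label: it held the highest Slc17a6 (468 CPM) and the highest level of the thalamic transcription factor Tcf7l2 (304 CPM) among the striatum libraries, with a projection neuron sum of 1611 CPM. Others were alike: striatum ZT12 replicate 1 had a sum of 1614 CPM with 382 CPM of Slc17a6, and ZT6 replicate 7 had the lowest sum, 1404 CPM, with 250 CPM of Slc17a6. Over the 55 striatum libraries, the log2 sums of projection neuron genes and of thalamic markers were inversely related (Pearson r = -0.735, Spearman rho = -0.802, permutation p = 1e-05 for each, which is the smallest that 100000 permutations can give, adjusted p = 4e-05 over 8 such relations). The relation held without the 2 libraries farthest from the median (r = -0.727) and within the first cycle (r = -0.671) and the second (r = -0.732). The projection neuron sum was also inversely related to the cortical excitatory sum (r = -0.591, permutation adjusted p = 4e-05) and the oligodendrocyte sum (r = -0.304, permutation adjusted p = 0.0386). It rose with the astrocyte sum (r = 0.412, permutation adjusted p = 0.00368), at r = 0.049 in the first cycle and 0.593 in the second. Choroid plexus markers and ribosomal RNA share did not pass (r = -0.264 and -0.149, permutation adjusted p = 0.0695 and 0.278). The projection neuron sum also differed between cycles, with medians of 8348 CPM in 31 libraries of the first cycle and 3574 CPM in 24 of the second (mean log2 difference -0.73, permutation test adjusted p = 0.0435 over 10 comparisons). The medians by time of day lay between 3157 CPM at ZT15, with 2 libraries, and 9198 CPM at ZT21. How much of each result below came from these differences in the content of the striatum libraries was not tested, and values without the 15 mice of lowest projection neuron sum (under 2840 CPM, 2 times the highest hypothalamus library) are given where they bear on it. Since the projection neuron genes chose those mice, a rise of these genes without them follows in part from the choice. The same can hold for other genes whose striatal levels go with theirs.

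**Figure D1:**
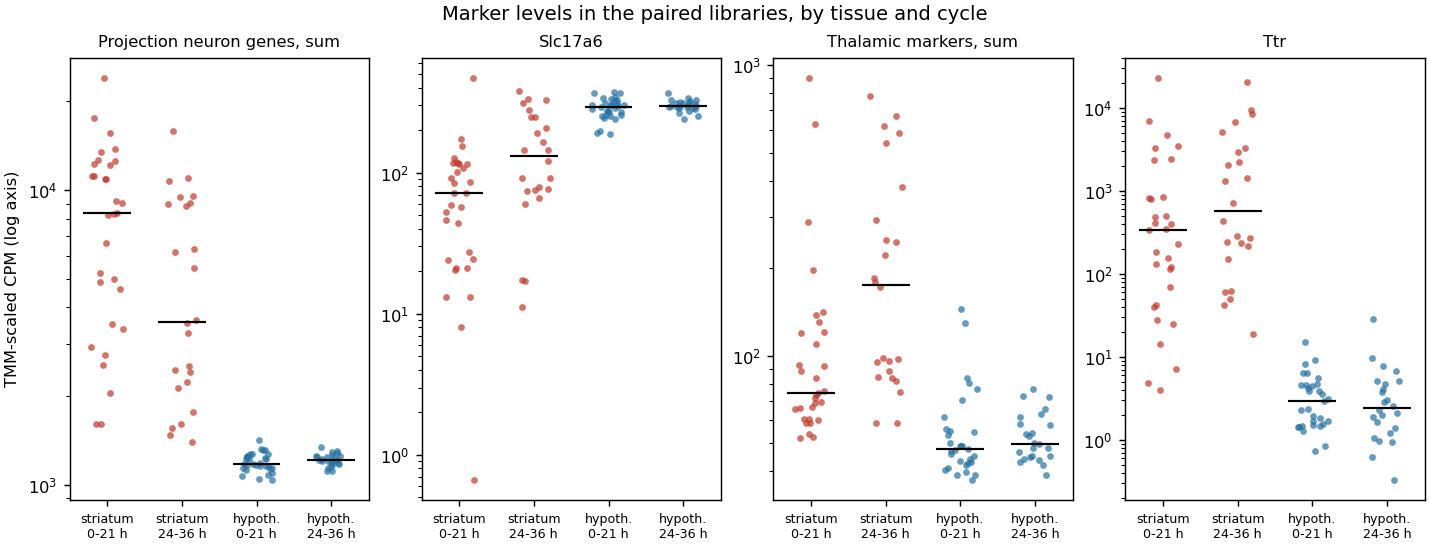
TMM-scaled CPM (log axis) of the summed projection neuron genes, Slc17a6, the summed thalamic markers and Ttr in each of the 110 paired libraries, by tissue and cycle; each point is a library and each bar a median. The striatum libraries spread from 1404 to 23972.5 CPM for the projection neuron genes and from 3.99 to 22919 CPM for Ttr, while the hypothalamus libraries stay within 1041 to 1420 CPM and 0.330 to 28.8 CPM.

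Ribosomal RNA, mitochondrial included, and the transcript Gm42418 together took 1.08, 6.13 and 27.2% of counts in the lowest, median and highest striatum library and 0.828, 3.49 and 14.02% in hypothalamus. Mitochondrial transcripts took 5.67, 10.2 and 23.4% against 4.31, 6.78 and 10.9%. In whole tissue, fewer cells of a type and less RNA per cell cannot be told apart.

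Most genes differed between the tissues, in both directions and mostly by little. Of 18954 genes tested with edgeR's quasi-likelihood test with the mouse as a block, 7313 were higher in striatum (38.6% of those tested) and 7026 were lower (37.1%) at a Benjamini-Hochberg adjusted p under 0.05. Under library totals in place of TMM scaling, which moved the median log2 ratio of all genes from 0.008 to -0.146, the split was 4496 higher and 10126 lower, so small differences are to be read against that shift. The median absolute log2 ratio was 0.26 and the median standard error 0.059. At 2-fold or more, 802 genes were higher in striatum (4.23%) and 886 were lower (4.67%). Every striatum library lay above every hypothalamus library for 72 genes (0.38%), and below for 125 genes (0.659%). Without the 15 mice of lowest projection neuron sum these counts were 331 and 257 genes, and such a count can only grow as libraries are left out, apart from small shifts in scaling. Throughout, a ratio is striatum over hypothalamus on the log2 scale with its standard error, and levels are TMM-scaled CPM in 55 libraries per tissue. Each count of list members below is to be read beside the shares of all genes tested. These were 38.6% higher and 37.1% lower, and 4.23% and 4.67% by 2-fold or more. Described below are 488 members of 39 lists of cell type markers and pathway genes: 467 were tested, 215 were higher, 199 were lower, 19 did not pass the filter on counts, some of them high in single libraries, and no row was matched for the other 2, Gpr52 and Kiss1. Whether the counting used strand is not given in the sources used here, and of the genes named below Ppp1r1b (15.7%), Penk (14.3%), Agrp (11.3%), Foxb1 (14.01%), Dbp (18.0%), Gnas (21.97%) and Rax (27.4%) share that part of their exonic bases with another gene.

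**Figure D2:**
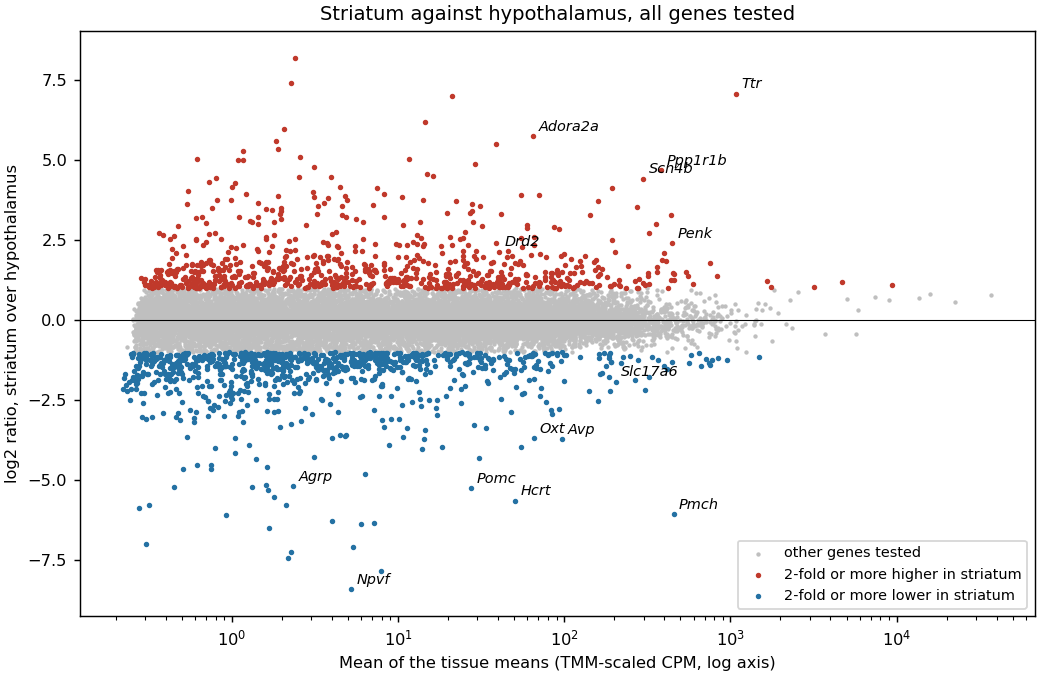
Log2 ratio of striatum over hypothalamus against the mean of the tissue means (TMM-scaled CPM, log axis) for the 18954 genes tested, with the 802 genes higher and the 886 genes lower by 2-fold or more in colour. Among the labelled genes Ttr lies highest, at 7.08, and Npvf lowest, at -8.40.

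The genes that both kinds of striatal projection neuron use were higher in striatum without exception in the list. All 20 passed the test in that direction, 18 of them by 2-fold or more, with a median log2 ratio of 2.04 beside 0.008 over all genes tested, and under library totals alone 19 passed. Ppp1r1b encodes DARPP-32, the phosphoprotein through which dopamine controls protein phosphatase 1. Its level was 34.5, 669 and 3383 CPM in the lowest, median and highest striatum library and 12.7, 18.6 and 28.6 CPM in hypothalamus. The groups did not overlap, and the ratio was 4.68 ± 0.26, a 25.7-fold difference (adjusted p = 2.31e-23), higher in 55 of 55 mice. Scn4b encodes a sodium channel beta subunit and ran at 35.2, 527 and 2461 CPM in striatum against 5.66, 19 and 31.2 CPM, again without overlap (ratio 4.42 ± 0.26, adjusted p = 6.62e-23). Arpp21, a cyclic AMP-regulated phosphoprotein, was the third member with no overlap, at 82.6, 675 and 2506 CPM against 41.2, 59.7 and 73.8 CPM (ratio 3.30 ± 0.23, adjusted p = 1.19e-19).

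Among the other members the ranges overlapped, and for all of them but Cnr1 the striatal median stood above the highest hypothalamus library. The transcription factors Meis2 and Bcl11b (CTIP2), which act in striatal neuron development, had ratios of 3.72 ± 0.13 and 2.98 ± 0.18 and were higher in striatum in every mouse. Gng7, the gamma subunit of the striatal stimulatory G protein, had a ratio of 3.01 ± 0.19, and Gnal, its alpha subunit, 1.40 ± 0.09, both higher in every mouse. Adcy5, the adenylyl cyclase these subunits drive, had a ratio of 1.29 ± 0.16. The phosphodiesterases Pde10a and Pde1b, which break down cyclic nucleotides, had ratios of 2.73 ± 0.23 and 2.10 ± 0.16. Rgs9, which speeds the shut-off of G proteins, spanned 13.4 to 961 CPM in striatum and was higher there in 45 of 55 mice (ratio 1.83 ± 0.23). The 2 members under 2-fold were Rxrg, a retinoid X receptor (ratio 0.87 ± 0.16, adjusted p = 2.93e-06), and Cnr1, the CB1 cannabinoid receptor (ratio 0.26 ± 0.10, adjusted p = 0.0163). In the second cycle alone neither passed, at 0.03 for Cnr1 and 0.48 for Rxrg, and Cnr1 did not pass under library totals alone either (0.10).

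All tested genes of indirect-pathway (D2) neurons were higher in striatum, whereas those of direct-pathway (D1) neurons were split. Of the D2 genes, 5 of 5 tested were higher, each by 2-fold or more (median log2 ratio 2.32). Adora2a, an adenosine receptor, ran at 1.59, 111 and 601 CPM in striatum against 0.785, 1.43 and 3.39 CPM, with a ratio of 5.74 ± 0.31 (adjusted p = 3.81e-24), higher in 55 of 55 mice. Penk, the enkephalin precursor, ran at 38.2, 616 and 2744 CPM against 79.6, 107 and 134 CPM (ratio 2.42 ± 0.19, adjusted p = 2.20e-17). The striatal median for Penk lay above the hypothalamic range and the lowest library under it. Drd2, the D2 receptor, ran at 6.89, 56.4 and 287 CPM against 7.80, 11.2 and 19.9 CPM (ratio 2.15 ± 0.20, adjusted p = 7.26e-15), and Gpr6, an orphan receptor, and Sp9, a transcription factor needed for these neurons, each had a ratio of 2.32. Of the D1 genes, 4 of 7 tested were higher, 1 was lower and 2 did not pass (median log2 ratio 0.30). Drd1, the D1 receptor, ran at 4.99, 116 and 413 CPM against 4.71, 6.06 and 9.76 CPM (ratio 3.92 ± 0.26, adjusted p = 1.02e-20), and the M4 muscarinic receptor Chrm4 and the transporter Slc35d3 had ratios of 3.07 ± 0.18 and 2.38 ± 0.13. The groups overlapped for all 3. Eya1, a transcriptional coactivator, was higher by 0.28 ± 0.06. The peptide precursors of the D1 neurons stood apart from the receptors. Tac1, the substance P precursor, ran at 24.1, 114 and 528 CPM in striatum against 67.7, 96.2 and 154 CPM, with a ratio of 0.30 ± 0.16 that did not pass (adjusted p = 0.0884). Pdyn, the dynorphin precursor, ran at 12.8, 77.2 and 224 CPM against 59.9, 87.4 and 144 CPM (ratio -0.22 ± 0.14, adjusted p = 0.165). Without the 15 mice of lowest projection neuron sum, Tac1 passed at 0.83 (adjusted p = 4.59e-07) and Pdyn at 0.27 (adjusted p = 0.0183). Isl1, a LIM-homeodomain factor also found in hypothalamic neurons, was the D1 gene lower in striatum (ratio -0.36 ± 0.07, adjusted p = 1.17e-05), higher there in 5 of 55 mice.

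**Figure D3:**
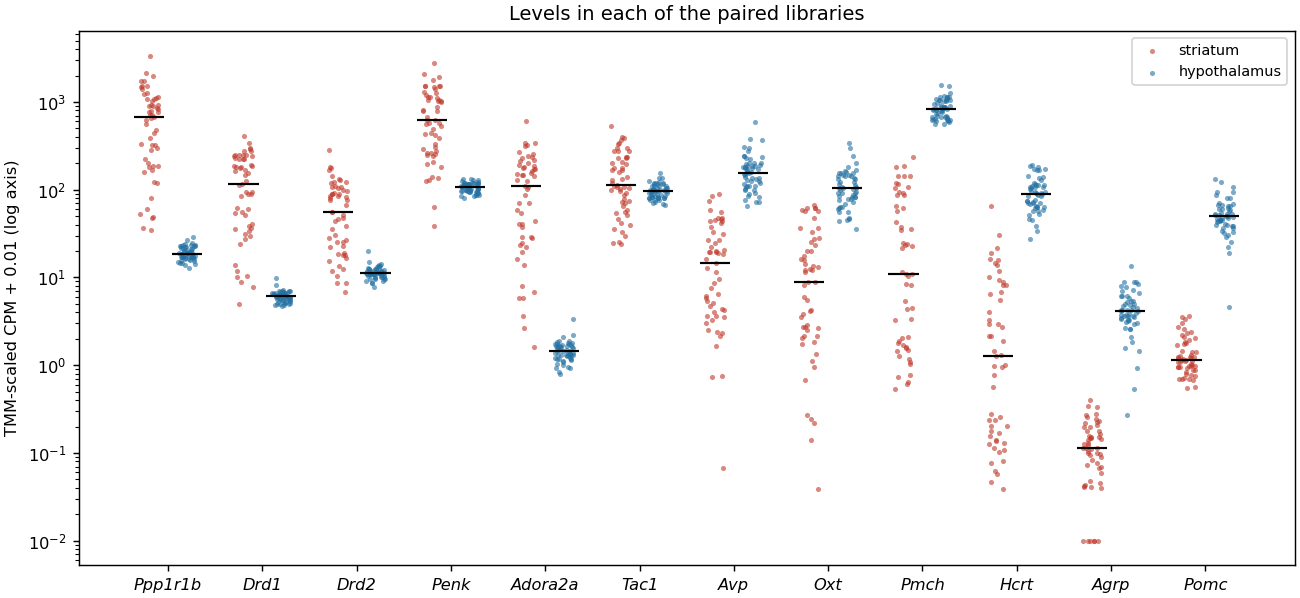
TMM-scaled CPM + 0.01 (log axis) of 6 striatal and 6 hypothalamic genes in each of the 55 striatum (red) and 55 hypothalamus (blue) libraries; points are libraries and bars medians. Ppp1r1b and Pmch show no overlap between tissues, at 34.5 against 28.6 CPM and 235 against 565 CPM where the ranges come closest, while Tac1 overlaps throughout.

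Striatal interneurons are few and make acetylcholine or GABA with various peptides. Of their 10 genes, 7 were higher in striatum and 3 were lower, 5 and 2 of them by 2-fold or more. The cholinergic genes were clear: Chat, which makes acetylcholine, ran at 3.69, 28.1 and 56.0 CPM in striatum against 0.572, 1.49 and 7.90 CPM (ratio 3.76 ± 0.17, adjusted p = 1.09e-27), and the choline transporter Slc5a7 had a ratio of 3.40 ± 0.15, both higher in every mouse. Lhx8 and Lhx6, LIM-homeodomain factors of cells from the ventral telencephalon, had ratios of 3.87 ± 0.18 and 2.57 ± 0.14. The calcium buffer gene Pvalb had a ratio of 2.92 ± 0.18 (112 CPM at the median against 16.5 CPM). Npy and Sst, peptide genes of 1 interneuron class that are also made in hypothalamic nuclei, were higher by 0.84 ± 0.15 and 0.55 ± 0.10. Nos1, the nitric oxide synthase of that class, was lower (ratio -0.70 ± 0.08), as were Calb2 (-1.69 ± 0.17) and Th (-1.72 ± 0.08). Of 5 striosome genes, which mark patches within the striatum, 4 were higher and 1 was lower, none by 2-fold. Sema5b, a semaphorin, had a ratio of 0.74 ± 0.08. Oprm1, the mu opioid receptor, had the only negative ratio of these 5 (-0.21 ± 0.09, adjusted p = 0.0242) at a median of 1.45 CPM in striatum and 1.57 CPM in hypothalamus, and it did not pass in the second cycle alone (-0.13) or with no mouse term (-0.16).

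Of 14 tested telencephalic transcription factors, 11 were higher in striatum, 7 of them by 2-fold or more, and 2 were lower (median log2 ratio 1.01). Within the Dlx homeobox family of GABAergic neurons the members differed in direction. Dlx5 and Dlx6, which adjoin each other in the genome, were higher in striatum (ratios 1.12 ± 0.09 and 1.37 ± 0.10). Dlx1 and Dlx2, likewise a neighbouring pair, were lower (-0.37 ± 0.11 and -0.32 ± 0.10, adjusted p = 0.00191 and 0.00297), though with 19 and 18 mice in the other direction. The Dlx1 and Dlx2 calls were lost in the second cycle alone and in the test with no mouse term.

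The peptide genes of the hypothalamus were mostly lower in striatum, several by far. Of 26 tested, 19 were lower in striatum, 18 by 2-fold or more, and 5 were higher (median log2 ratio -2.17), and for 7 of them every striatum library lay below every hypothalamus library. Their promoters and that of a projection neuron gene are shown as examples of genes with large differences in each direction, chosen among those with an entry in the table. The sequences are the 250 bases before the start of transcription given by RefSeq on GRCm38.p6, read 5′ to 3′ on the gene's strand. GENCODE M21, used for symbols, starts Scn4b at 45138395, so most of its window lies inside the gene as placed there. For Avp the M21 start (130582554) also differs from that of RefSeq. Capitals mark TATAAA (the TATA box) or CACGTG (the E-box that clock factors bind), searched on both strands, and no other of these words stands in the windows.
Hcrt, chr11:100762932-100763181, minus strand: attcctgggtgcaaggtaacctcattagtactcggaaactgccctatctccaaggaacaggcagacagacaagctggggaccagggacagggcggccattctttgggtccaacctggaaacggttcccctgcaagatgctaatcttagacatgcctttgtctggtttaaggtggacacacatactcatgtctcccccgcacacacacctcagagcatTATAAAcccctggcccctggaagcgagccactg
Pmch, chr10:88090822-88091071, plus strand: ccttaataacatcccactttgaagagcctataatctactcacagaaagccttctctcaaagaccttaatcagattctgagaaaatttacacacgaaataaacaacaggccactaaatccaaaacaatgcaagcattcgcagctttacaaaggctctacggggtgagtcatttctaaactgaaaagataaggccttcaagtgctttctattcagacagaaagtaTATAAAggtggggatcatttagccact
Avp, chr2:130582589-130582838, minus strand: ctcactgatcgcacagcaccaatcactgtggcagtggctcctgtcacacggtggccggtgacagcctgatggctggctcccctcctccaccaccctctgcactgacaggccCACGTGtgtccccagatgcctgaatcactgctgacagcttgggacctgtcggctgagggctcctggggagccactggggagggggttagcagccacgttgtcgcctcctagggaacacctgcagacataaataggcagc
Scn4b, chr9:45138374-45138623, plus strand: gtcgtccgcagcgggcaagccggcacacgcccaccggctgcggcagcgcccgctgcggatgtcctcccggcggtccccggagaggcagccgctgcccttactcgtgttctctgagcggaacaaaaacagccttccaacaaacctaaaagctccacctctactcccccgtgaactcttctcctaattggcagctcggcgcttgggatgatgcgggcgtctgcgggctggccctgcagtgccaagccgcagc
The capitals begin 33 bases before the start in Hcrt, 27 in Pmch and 139 in Avp. TATAAA lay within the last 60 bases, on the gene's strand, in 5 of the 23 peptide genes with an entry (Hcrt, Npvf, Pmch, Pomc and Vip) and in 0 of 16 projection neuron genes, beside 3.15% of all 27025 promoters. Over the whole window on either strand TATAAA stood in 13% and CACGTG in 6.05% of all promoters. TGACG, the half-site of the cyclic AMP response element, stood in 10 of the 23 peptide promoters, beside 17.9% of all. It stood in 0 of 16 promoters of genes of both kinds of projection neuron, but in 3 of 6 of D1 genes and 1 of 3 of D2 genes. The peptide genes with it included Cck and Sst, which were higher in striatum, and Kiss1, for which no row was matched. A match is a description of the letters and not of binding.

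Pmch, the precursor of melanin-concentrating hormone from the lateral hypothalamus, ran at 565, 834 and 1567 CPM in hypothalamus and at 0.532, 11 and 235 CPM in striatum. The groups did not overlap, and the ratio was -6.05 ± 0.45, 66.2-fold higher in hypothalamus (adjusted p = 2.89e-18). Of its exonic bases, 58.1% overlap Parpbp. Hcrt, the orexin precursor of neighbouring neurons that promote waking, ran at 27.4, 90.5 and 191 CPM against 0.0290, 1.27 and 65.4 CPM in striatum (ratio -5.64 ± 0.40, adjusted p = 6.04e-19), and the ranges overlapped. Pomc and Agrp come from neurons of the arcuate nucleus that lower and raise food intake. Pomc ran at 4.64, 49.5 and 131 CPM against 0.534, 1.13 and 3.60 CPM without overlap (ratio -5.24 ± 0.13, adjusted p = 4.13e-40), and Agrp at 0.259, 4.16 and 13.5 CPM against 0, 0.104 and 0.396 CPM (ratio -5.18 ± 0.15), the Agrp ranges touching at their ends. Cartpt, which gives the CART peptide, ran at 58.6, 88.8 and 161 CPM against 3.75, 18.2 and 56.3 CPM, again without overlap (ratio -2.29 ± 0.13). Npvf, the RFamide-related peptide precursor, had a median of 10.1 CPM in hypothalamus and 0.0264 CPM in striatum, so that its fitted ratio of -8.40 depends on the prior count. Qrfp, another RFamide peptide, was likewise at a median of 3.07 CPM in hypothalamus and 0 in striatum.

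Of the hormones released to the pituitary or the blood, Avp, Oxt, Ghrh, Trh and Gnrh1 followed the same order. Crh and Sst were higher in striatum. Avp, vasopressin, ran at 65.7, 157 and 593 CPM in hypothalamus against 0.0577, 14.6 and 90.0 CPM in striatum (ratio -3.71 ± 0.28, adjusted p = 9.95e-18), lower in striatum in 54 of 55 mice. Oxt, oxytocin, which lies beside Avp, ran at 36.0, 104 and 339 CPM against 0.0288, 8.79 and 66.3 CPM (ratio -3.68 ± 0.35, adjusted p = 4.75e-14). The highest striatum libraries for both genes lay inside the hypothalamic range. The releasing hormones Ghrh and Trh, for growth hormone and thyrotropin, had ratios of -3.57 ± 0.15 and -2.76 ± 0.19, and Gnrh1, for the gonadotropins, -1.11 ± 0.21. Adcyap1 (PACAP) ran at 58.1, 102 and 138 CPM against 0.420, 8.10 and 27.4 CPM with no overlap (ratio -3.95 ± 0.18), and Vip, a peptide of the suprachiasmatic clock neurons, had a ratio of -2.64 ± 0.16. Gal, galanin, had a ratio of -2.04 ± 0.21. The sum of the peptide genes in striatum was 156, 476 and 1375 CPM against 1340, 1925 and 3069 CPM in hypothalamus, lower in all 55 mice. Over the striatum libraries that sum and the projection neuron sum were inversely related (r = -0.445, rho = -0.463, permutation adjusted p = 0.00179 and 0.00128, r = -0.367 without the 2 farthest libraries), at r = -0.193 in the first cycle and r = -0.655 in the second. The sum of hypothalamic transcription factors did not show this (r = -0.177, rho = -0.154, permutation adjusted p = 0.223 and 0.299). Both sums include members that were higher in striatum, such as Sst and Six3, so neither measures hypothalamic content alone. The highest peptide sum in striatum, 1375 CPM, was that of ZT0 replicate 7, with a projection neuron sum of 1561 CPM. That library also held the highest striatal levels of Hcrt, Pomc, Agrp, Cartpt, Ghrh, Trh, Crh and Gal. Its share of ribosomal RNA and Gm42418, 27.2%, was the highest in striatum too. The highest striatal levels of Avp, Oxt and Pmch came from other libraries. The 5 peptide genes higher in striatum were Npy and Sst, given above, Crh, corticotropin-releasing hormone (0.96 ± 0.14), Cck, cholecystokinin (0.72 ± 0.17), and Tac2, neurokinin B (0.37 ± 0.15, adjusted p = 0.0239). Without the 15 mice of lowest projection neuron sum, Cck (0.25) and Tac2 (0.16) did not pass, and Crh did (0.79, adjusted p = 4.37e-06). Nts, neurotensin, at 31 against 37.9 CPM at the median, and Ucn3, urocortin 3, at 1.97 against 3.01 CPM, did not pass (adjusted p = 0.0716 and 0.172), and both passed as lower without those mice (-0.36 and -0.80).

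Of 23 hypothalamic transcription factors, 21 were lower in striatum, 18 by 2-fold or more, and for 9 the groups did not overlap (median log2 ratio -3.90). Nr5a1 (SF-1), which marks the ventromedial nucleus, ran at 8.02, 14.6 and 31 CPM in hypothalamus against 0, 0.0334 and 0.350 CPM in striatum. Nkx2-4, Six6 and Bsx had medians of 4.51, 11.6 and 4 CPM against 0, 0.0825 and 0.0305 CPM. Such fitted ratios, -7.84 for Nr5a1 and -7.25 for Nkx2-4, depend on the prior count. Otp and Sim1, which specify the oxytocin and vasopressin neurons, ran at 24.0, 34.1 and 43.0 CPM against 0.0670, 2.13 and 10.3 CPM, and at 11.1, 19.5 and 24.6 CPM against 0.0699, 1.67 and 10.5 CPM. Both were free of overlap, with ratios of -3.94 ± 0.21 and -3.66 ± 0.21. Fezf1 (ratio -4.03 ± 0.20), Foxb1 (-3.90 ± 0.18), Lhx1 (-3.10 ± 0.17) and Tbx3 (-2.05 ± 0.07) followed. Nkx2-1, which patterns the ventral forebrain and is also used by striatal interneurons, differed less (23.7 against 9.77 CPM at the median, ratio -1.42 ± 0.11). Six3 was the 1 factor of the list higher in striatum (49.5 against 26.8 CPM at the median, ratio 0.85 ± 0.08, adjusted p = 1.22e-13).

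Receptors for peptides and hormones of energy balance were mostly lower in striatum. Of 23, 19 were lower, 10 by 2-fold or more, and 2 were higher (median log2 ratio -0.77). Ghsr, the ghrelin receptor, ran at 4.73, 7.35 and 9.55 CPM in hypothalamus against 0, 0.625 and 3.44 CPM in striatum without overlap (ratio -3.67 ± 0.18, adjusted p = 9.92e-26). Calcr, the calcitonin receptor, also showed no overlap, at 30.9, 39.6 and 54.2 CPM against 0.461, 7.68 and 24.4 CPM (ratio -2.59 ± 0.15). The receptors for melanocortins Mc3r and Mc4r had ratios of -1.85 ± 0.10 and -0.49 ± 0.08, for leptin (Lepr) -1.08 ± 0.12 and for GLP-1 (Glp1r) -1.34 ± 0.16. The orexin receptors Hcrtr1 and Hcrtr2 were lower by similar amounts (-1.18 ± 0.12 and -1.19 ± 0.10). The 2 higher members were Mchr1, the receptor for melanin-concentrating hormone (20.9 against 11.2 CPM at the median, ratio 0.82 ± 0.12, adjusted p = 1.26e-08), and Crhr1, the receptor for corticotropin-releasing hormone (14 against 9.29 CPM, ratio 0.59 ± 0.05, adjusted p = 9.07e-15). Of 6 steroid hormone receptors, 4 were lower and 1 was higher. The estrogen receptor Esr1 ran at 11.1, 17.9 and 25.2 CPM against 0.699, 5.60 and 15.7 CPM (ratio -1.82 ± 0.13), and the mineralocorticoid receptor Nr3c2 was the higher one (0.55 ± 0.05). Of 8 opioid precursors and receptors, 5 were lower and 2 were higher. Besides Penk, the delta receptor Oprd1 was higher (1.08 ± 0.11), while the nociceptin receptor Oprl1 ran without overlap at 118, 135 and 154 CPM in hypothalamus against 29.2, 64.6 and 101 CPM (ratio -1.09 ± 0.06). The kappa receptor Oprk1 was lower by -0.32 ± 0.07 (adjusted p = 1.39e-05), and did not pass without the 15 mice of lowest projection neuron sum (-0.11).

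Genes that make and carry monoamines were mostly lower in striatum. Dopamine and serotonin reach the striatum in axons whose cell bodies lie elsewhere, and the part of this in the difference was not tested. Of 10 tested, 8 were lower, 5 of them without overlap, and 1 was higher (median log2 ratio -1.74). Hdc, which makes histamine in the tuberomammillary nucleus, ran at 26.3, 58.9 and 80.8 CPM in hypothalamus against 0.687, 2.71 and 10.6 CPM in striatum (ratio -4.29 ± 0.14, adjusted p = 5.00e-34). The vesicular monoamine transporter Slc18a2 ran at 27.2, 50.4 and 99.9 CPM against 0.385, 5.63 and 16.1 CPM (ratio -3.26 ± 0.13), the dopamine transporter Slc6a3 had a ratio of -3.61 ± 0.16, and Th, the rate-limiting enzyme of catecholamine synthesis, ran at 25.2, 35.1 and 108 CPM against 3.83, 11.6 and 19.8 CPM. Ddc and Gch1, which complete dopamine synthesis and supply its cofactor, had ratios of -1.77 ± 0.05 and -1.86 ± 0.05, with no overlap for either. Tph2, of serotonin synthesis, did not pass at medians of 0.618 and 0.552 CPM (adjusted p = 0.158). Of the receptors for dopamine, serotonin and histamine, 11 of 18 tested were higher in striatum and 6 were lower. Next to Drd1 and Drd2, Drd3 had a ratio of 0.93 ± 0.18, and the serotonin receptors Htr1d and Htr1f had ratios of 1.23 ± 0.13 and 1.37 ± 0.09, while the histamine H1 receptor Hrh1 was lower (-1.02 ± 0.07). Of 13 acetylcholine receptors, 3 were higher and 8 were lower. The M1 receptor Chrm1 ran at 15.2, 67.5 and 228 CPM in striatum against 11.8, 16 and 22.2 CPM (ratio 2.00 ± 0.15). The M5 receptor Chrm5 and the nicotinic subunit Chrna6, both known from dopamine neurons, were lower (-1.81 ± 0.11 and -2.84 ± 0.18).

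The genes of fast transmitters went in both directions, 6 of 12 higher and 5 lower, near the shares of all genes tested (38.6% and 37.1%). The GABA-synthesizing enzyme Gad1 ran at 525, 815 and 1256 CPM in striatum against 260, 372 and 457 CPM in hypothalamus, without overlap (ratio 1.13 ± 0.03, adjusted p = 1.66e-37). Its standard error was among the smaller ones here, and the ratio was 1.12 without the 15 mice of lowest projection neuron sum. Gad2 and the vesicular GABA transporter Slc32a1 had ratios of 0.54 ± 0.04 and 0.80 ± 0.06 (24.9% of the exonic bases of Slc32a1 overlap another gene). The glial GABA transporter Slc6a11 was lower (-1.03 ± 0.08). Of the vesicular glutamate transporters, Slc17a6 ran at 0.664, 86.2 and 468 CPM in striatum against 189, 296 and 374 CPM (ratio -1.91 ± 0.22, adjusted p = 1.62e-11), with the overlap described above. Slc17a7, of cortical neurons, and Slc17a8, also used by cholinergic interneurons, were higher (2.99 ± 0.27 and 1.53 ± 0.13), Slc17a7 at a median of 8.26 CPM in striatum and 1.07 CPM in hypothalamus.

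GABA and glycine receptor subunits were more often lower in striatum (12 of 20) than higher (5), but the largest ratio belonged to a higher one. Gabrd, the delta subunit of receptors outside synapses, ran at 11.4, 76.0 and 258 CPM in striatum against 0.775, 1.25 and 5.16 CPM, without overlap (ratio 5.51 ± 0.15, 45.6-fold, adjusted p = 2.26e-38). Gabra4, a partner subunit, had a ratio of 1.73 ± 0.08. On the other side stood the subunits Gabre (-2.94 ± 0.17) and Gabrq (-2.54 ± 0.16), Gabrq at 93.6, 127 and 155 CPM in hypothalamus against 1.22, 24.7 and 85.1 CPM without overlap, and the glycine receptor subunit Glra1 (-2.36 ± 0.18). Of 22 glutamate receptor subunits 9 were higher and 9 were lower, shares near those of all genes tested (38.6% and 37.1%). The metabotropic receptor Grm3 ran at 31.5, 60.03 and 105 CPM in striatum against 15.4, 22.6 and 28.0 CPM without overlap (ratio 1.38 ± 0.05), its relative Grm2 was lower (-1.51 ± 0.16), and the NMDA receptor subunit Grin2a was higher (0.96 ± 0.07).

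Signalling genes of the cyclic AMP, calcium and RGS families were higher almost throughout: 24 of 25 were higher in striatum, 18 by 2-fold or more, and 0 were lower (median log2 ratio 1.29). This list shares Ppp1r1b, Pde10a, Pde1b, Gng7, Gnal, Adcy5 and Rgs9 with the projection neuron genes. Of the others, Hpca, the calcium sensor hippocalcin, ran at 73.3, 593 and 2941 CPM against 96.8, 138 and 181 CPM (ratio 1.85 ± 0.18). The anchoring protein Akap5, the kinase Camk4 and the calcineurin subunit Ppp3ca had ratios of 2.36 ± 0.19, 1.87 ± 0.14 and 1.38 ± 0.12. Rgs2 did not pass, at 119 against 104 CPM at the median (ratio 0.12 ± 0.07, adjusted p = 0.127), and passed at 0.30 without the 15 mice of lowest projection neuron sum.

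Genes of peptide processing and dense-core vesicles went the other way, with 13 of 15 lower in striatum, 6 by 2-fold or more, and 1 higher (median log2 ratio -0.57). Scg2, a secretogranin, ran at 1045, 1161 and 1288 CPM in hypothalamus against 185, 523 and 749 CPM in striatum (ratio -1.17 ± 0.04, adjusted p = 2.00e-33). Pam, which amidates peptides, ran at 300, 394 and 444 CPM against 104, 170 and 233 CPM (ratio -1.24 ± 0.04), and the convertase Pcsk1 at 37.6, 53.3 and 65.3 CPM against 4.40, 14.7 and 28.7 CPM (ratio -1.90 ± 0.09). None of the 3 overlapped. Baiap3, of vesicle release, had a ratio of -2.17 ± 0.16. The convertase Pcsk2 did not pass (-0.10 ± 0.06, adjusted p = 0.129), and the carboxypeptidase Cpe was slightly higher in striatum (0.21 ± 0.02, adjusted p = 1.11e-11), a call lost under library totals alone (0.06).

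Imprinted genes, which are expressed from 1 parental copy and are numerous in the hypothalamus, were mostly lower in striatum. Of 26 tested, 18 were lower, 12 by 2-fold or more, and 6 were higher (median log2 ratio -0.92). Asb4 ran at 37.3, 60.2 and 76.6 CPM in hypothalamus against 1.05, 5.74 and 22.7 CPM in striatum (ratio -3.38 ± 0.15, adjusted p = 1.25e-27). Magel2, of the Prader-Willi region, ran at 66.1, 93.9 and 120 CPM against 2.27, 19.8 and 55.4 CPM (ratio -2.29 ± 0.14), and Dlk1 at 141, 230 and 269 CPM against 10.8, 56.0 and 132 CPM (ratio -2.20 ± 0.13). These 3 were free of overlap. Ndn, beside Magel2, Peg3 and Peg10 had ratios of -1.23 ± 0.08, -1.23 ± 0.10 and -1.77 ± 0.11. The long noncoding RNA Meg3, at a median of 6190 CPM in hypothalamus and 4730 CPM in striatum, differed little in ratio (-0.41 ± 0.08). Dio3, which inactivates thyroid hormone, was the 1 imprinted gene higher by 2-fold or more (2.36 ± 0.18), at a median of 1.12 CPM in striatum and 0.207 CPM in hypothalamus.

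**Figure D4:**
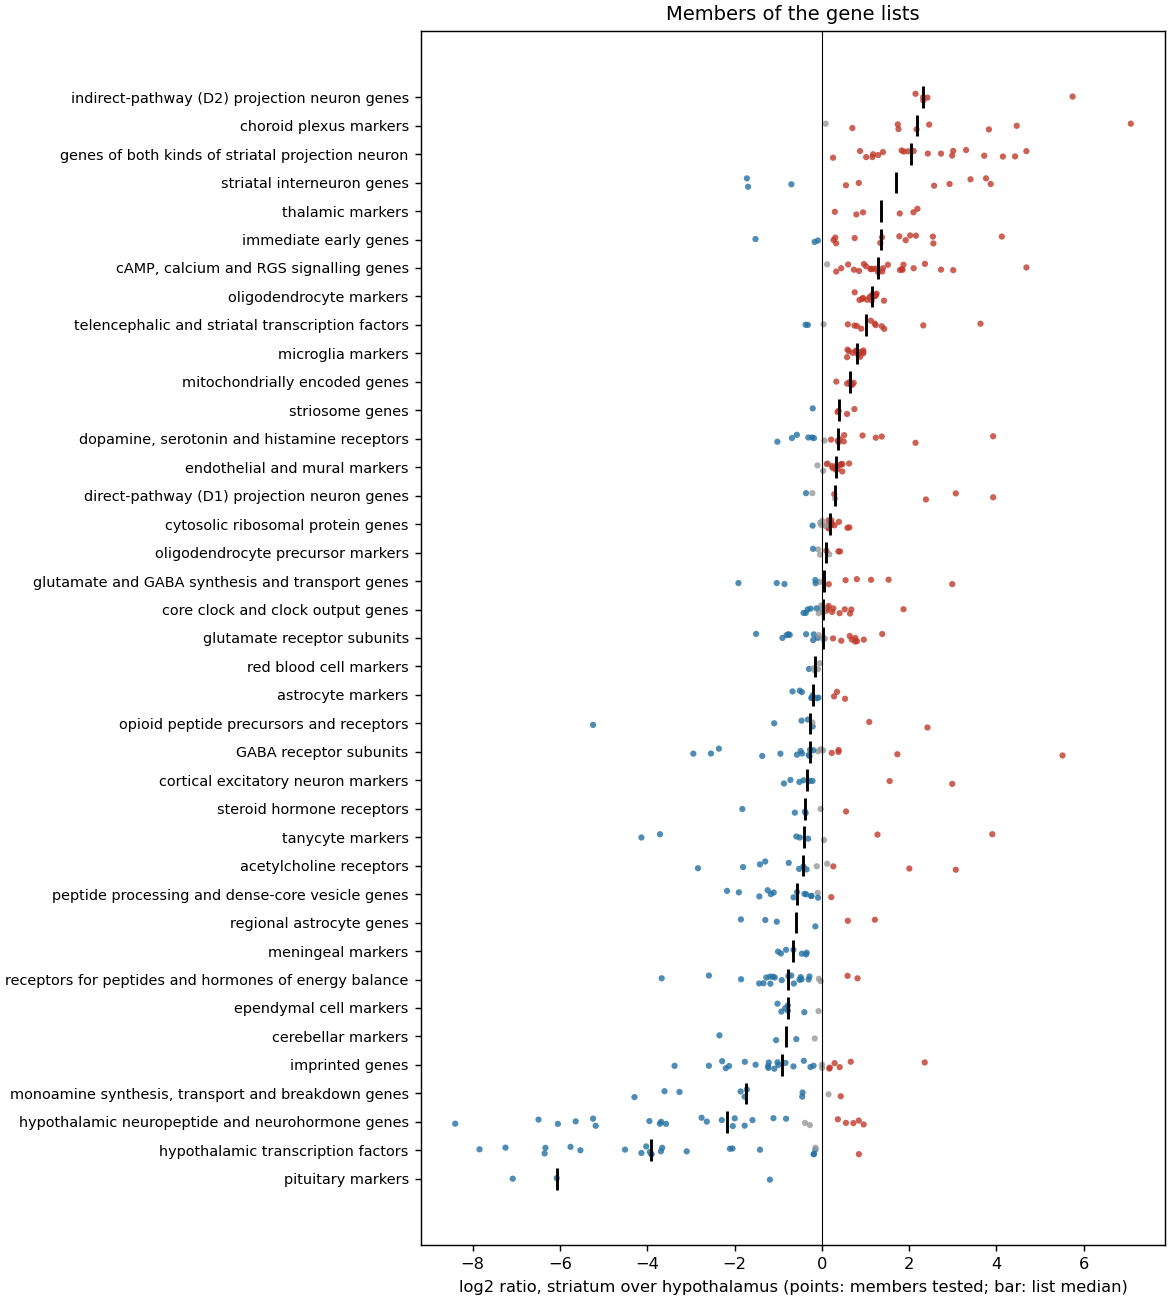
Log2 ratio of striatum over hypothalamus for the tested members of the 39 lists, ordered by list median (black bars); red and blue points passed the test as higher and lower, grey points did not. Medians run from 2.32 for the D2 genes to -3.90 for the hypothalamic transcription factors and -6.08 for 3 tested pituitary markers.

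Among glia, the markers of myelinating oligodendrocytes and of microglia were higher in striatum throughout their lists. All 14 oligodendrocyte genes passed, 10 by 2-fold or more (median log2 ratio 1.14). The myelin gene Mbp ran at 3036, 6260 and 14995 CPM in striatum against 1885, 2621 and 4970 CPM. The ranges overlapped, and the ratio was 1.2 ± 0.08. Mobp and Opalin followed at 1.23 ± 0.07 and 1.42 ± 0.08. Oligodendrocyte precursor genes did not share this: 3 of 7 were higher and 1 was lower, Pdgfra, the growth factor receptor that marks them (-0.20 ± 0.05), and under library totals alone 2 were higher and 3 were lower. All 12 microglial genes were higher, none by 2-fold (median log2 ratio 0.81), among them the purinergic receptor P2ry12 (0.94 ± 0.06) and the complement gene C1qb (0.95 ± 0.10). Of 11 astrocyte markers, 3 were higher and 8 were lower, none by 2-fold, although their summed level was higher in striatum in 54 mice, a sum led by genes such as the glutamate transporter Slc1a2 (1739 against 1207 CPM at the median, ratio 0.53 ± 0.05). Gfap was lower (-0.67 ± 0.09). Of 6 genes known to differ among astrocytes by region, 4 were lower and 2 were higher, 3 and 1 of them by 2-fold or more. Itih3 ran at 345, 408 and 483 CPM in hypothalamus against 15.5, 115 and 265 CPM in striatum without overlap (ratio -1.86 ± 0.10), and Agt, angiotensinogen, had a ratio of -1.30 ± 0.13. The higher ones were Lhx2, a LIM-homeodomain factor (1.21 ± 0.08), and Mfge8, a milk fat globule protein (0.59 ± 0.04). Of 14 endothelial and mural markers, 11 were higher, none by 2-fold (median log2 ratio 0.33, 7 higher and 1 lower under library totals alone), with Cldn5, of tight junctions, at 0.43 ± 0.04 and Ly6c1 at 0.62 ± 0.07.

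Markers of neighbouring structures were present in both tissues. Of 9 choroid plexus markers, 8 were higher in striatum, 7 by 2-fold or more (median log2 ratio 2.17). Ttr, the transthyretin of the choroid plexus, ran at 3.99, 353 and 22919 CPM in striatum against 0.330, 2.56 and 28.8 CPM in hypothalamus (ratio 7.08 ± 0.50, adjusted p = 3.31e-19), and was higher in striatum in 55 of 55 mice. The channel subunit Kcne2 and the transporter Slc4a5 had ratios of 3.83 ± 0.36 and 4.46 ± 0.34 at medians of 1.46 and 1.65 CPM in striatum. Clic6 did not pass (ratio 0.09 ± 0.12, adjusted p = 0.535). Without the 18 mice whose choroid sum exceeded 1000 CPM in striatum, 6 markers were higher and 1, Clic6, was lower (-0.36). All 6 thalamic markers were higher in striatum, 3 by 2-fold or more: Prkcd, a protein kinase C, ran at 14.2, 35.0 and 481 CPM against 9.50, 13.4 and 38.3 CPM (ratio 1.78 ± 0.20), and the factor Gbx2 had a ratio of 2.19 ± 0.26 (43.5% of its exonic bases overlap another gene). Without the 15 mice of lowest projection neuron sum, 4 of the 6 passed, and Tcf7l2 did not (0.26 against 0.79 in all mice).

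On the hypothalamic side, the tested pituitary, ependymal, meningeal and cerebellar markers were mostly the higher ones. Of 10 pituitary markers 3 could be tested, and all were lower in striatum. Cga, the alpha subunit of the glycoprotein hormones, ran at 0, 10.6 and 46.2 CPM in hypothalamus against 0, 0.0303 and 0.860 CPM in striatum (31.97% of its exonic bases overlap Platr9), and Tbx19, of corticotroph cells, at 0.596, 1.80 and 2.95 CPM against 0, 0 and 0.324 CPM. The pituitary sum ranged from 1.63 to 834 CPM over the hypothalamus libraries. Of 7 ependymal markers, 6 were lower and 0 were higher. Tanycytes, the ependyma-like cells of the third ventricle, had 8 markers tested, of which 5 were lower and 2 were higher. Rax and Gpr50, which mark them most closely, had ratios of -4.13 ± 0.17 and -3.71 ± 0.15, Gpr50 at 11.8, 25.6 and 38.1 CPM against 0.140, 2.31 and 5.25 CPM without overlap. Crym, a thyroid hormone-binding protein also made by striatal neurons, and the deiodinase Dio2, also of astrocytes, were the higher ones (3.90 ± 0.24 and 1.27 ± 0.12). All 7 meningeal markers were lower in striatum, Col1a2, a fibrillar collagen, the most (-1.0 ± 0.08). Of 4 tested cerebellar markers 3 were lower, while Gabra6 and Pcp2 of that list did not pass the filter on counts. Of 8 cortical excitatory ones 6 were lower and 2, Slc17a7 and Tbr1, were higher. Of 5 red blood cell ones 1 was lower and the rest did not pass.

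Clock genes differed in both directions in mean level, with 1 call of 2-fold or more, as far as 55 mice over unequal times of day show. Of 22, 10 were higher in striatum, 5 were lower and 7 did not pass, beside 38.6% higher and 37.1% lower of all genes tested. Ratios ran from -0.42 to 1.87 around a median of 0.03. The balance flipped to 5 higher and 11 lower under library totals alone. The exception in size was Npas2, the partner of BMAL1 that is abundant in forebrain, at 10.6, 37.5 and 93.7 CPM in striatum against 7.09, 9.53 and 12.2 CPM (ratio 1.87 ± 0.11, adjusted p = 9.16e-23), higher in every mouse. The output factors Dbp and Hlf had ratios of 0.64 ± 0.06 and 0.67 ± 0.05, and the kinase Csnk1d -0.37 ± 0.03. Immediate early genes, which neurons switch on with activity, were higher for 13 of 16 and lower for 3, 9 and 1 of them by 2-fold or more (median log2 ratio 1.36). Egr3 ran at 0.945, 12.5 and 44.9 CPM in striatum against 0.114, 0.642 and 1.29 CPM (ratio 4.12 ± 0.22, adjusted p = 1.70e-24), and Egr1 had a ratio of 2.15 ± 0.14. Arc, of synaptic plasticity, ran at 18.8, 39.9 and 120 CPM against 7.49, 11.5 and 16.7 CPM with no overlap (ratio 1.92 ± 0.08). Fos was slightly lower (-0.17 ± 0.06, adjusted p = 0.00676), not passing with no mouse term (-0.06) or in the second cycle alone (-0.10), and Nr4a2, also a factor of dopamine neurons, was lower by -1.52 ± 0.10. Of 20 cytosolic ribosomal protein genes, 12 were higher and 1 was lower (median log2 ratio 0.18), turning to 3 higher and 5 lower under library totals alone. Rpl5 had a ratio of 0.63 ± 0.04 (26.7% of its exonic bases overlap another gene), and Rpl3 was the lower one (-0.21 ± 0.03). Of 9 mitochondrial genes mt-Co2, mt-Co3 and mt-Atp6 were not tested, and all 6 tested were higher, by 0.33 ± 0.06 for mt-Nd5 and 0.58 ± 0.07 for mt-Co1, none by 2-fold.

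Outside the lists, the genes of largest ratio at 10 CPM or more in the higher tissue included several of no list. Cd4, known as the coreceptor of helper T cells, ran at 0.346, 35.8 and 228 CPM in striatum against 0.0560, 0.216 and 0.534 CPM (ratio 7.0 ± 0.31, adjusted p = 3.68e-28) and was higher in every mouse. Without the 15 mice of lowest projection neuron sum its ratio was 7.89. Sh3rf2, a ubiquitin ligase, had a ratio of 6.20 ± 0.31, the phosphatase-like Ptprv 5.03 ± 0.29, the ankyrin repeat gene Ankrd63 4.88 ± 0.24, the serpin Serpina9 4.56 ± 0.24 and the calcium-activated chloride channel Ano2 3.96 ± 0.22. Each of these ratios was higher without the 15 mice, from 4.59 for Ano2 to 7.17 for Sh3rf2. Such rises, that of Cd4 included, can follow in part from how those mice were chosen. On the hypothalamic side Prph, the intermediate filament peripherin, ran at 6.79, 11.8 and 19.4 CPM against 0.0976, 0.384 and 4.01 CPM without overlap (ratio -4.81 ± 0.14). By difference in mean level rather than ratio, the list was led in striatum by mt-Rnr2, the mitochondrial large ribosomal RNA (15032 against 8798 CPM at the median), and in hypothalamus by Meg3. Snhg11, a small nucleolar RNA host gene, had a median of 4248 CPM in hypothalamus and 3174 CPM in striatum (ratio -0.44 ± 0.04), and the matricellular gene Sparc 1992 and 936 CPM (-1.14 ± 0.08). Ahi1, whose product binds huntingtin-associated protein 1, ran at 850, 1079 and 1268 CPM against 150, 414 and 842 CPM without overlap (-1.40 ± 0.07). The imprinted Nap1l5 and Gnas, the latter the widely used stimulatory G protein alpha subunit, had ratios of -1.0 ± 0.08 and -0.65 ± 0.07, and the receptor-sorting gene Gprasp1 -0.87 ± 0.07.

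Levels compared between genes need a scale per length, for which the deposited FPKM values serve. On that scale (mean over 55 libraries) Penk stood at 447 FPKM, Ppp1r1b at 237 and Pde1b at 214 in striatum, above Drd2 at 42.4, Drd1 at 36.1 and Tac1 at 42.6. In hypothalamus Pmch stood at 1216 FPKM, Avp at 313, Oxt at 223, Sst at 198, Hcrt at 135 and Cartpt at 109. In striatum the same genes were at 55.7, 34.8, 29.9, 269, 6.84 and 22.2 FPKM.

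The tissue difference was also measured in separate animals of each cycle. In the first cycle alone 12589 genes passed and in the second 11767, of which 10199 passed in both with the same direction and 6 with opposite direction. The test of the difference between cycles, over 44 mice at ZT0 to ZT12, the times both cycles hold, called 0 of 18940 genes with edgeR (0% in either direction), with 2637 at an unadjusted p under 0.05 (13.9%) and a smallest adjusted p of 0.263. DESeq2 called 1, Pmch (adjusted p = 0.0462), limma-voom 0, and edgeR with no mouse term 2. The ratios that follow are from each cycle alone, and the first cycle also holds mice at ZT15 to ZT21, which the second lacks. Projection neuron genes had larger ratios in the first cycle, 5.13 against 4.09 for Ppp1r1b, 6.22 against 5.12 for Adora2a and 4.34 against 3.36 for Drd1. In edgeR's test between the cycles at ZT0 to ZT12 these genes did not pass (adjusted p = 0.282, 0.294 and 0.287). Pmch and Hcrt were likewise farther from 0 in the first cycle, at -7.13 against -4.55 and -6.42 against -4.59, and Slc17a6 at -2.35 against -1.35. Ttr went the other way, at 6.59 against 7.84. These differences went with the projection neuron and thalamic sums of the striatum libraries, which differed between the cycles, and their part in them was not tested.

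**Figure D5:**
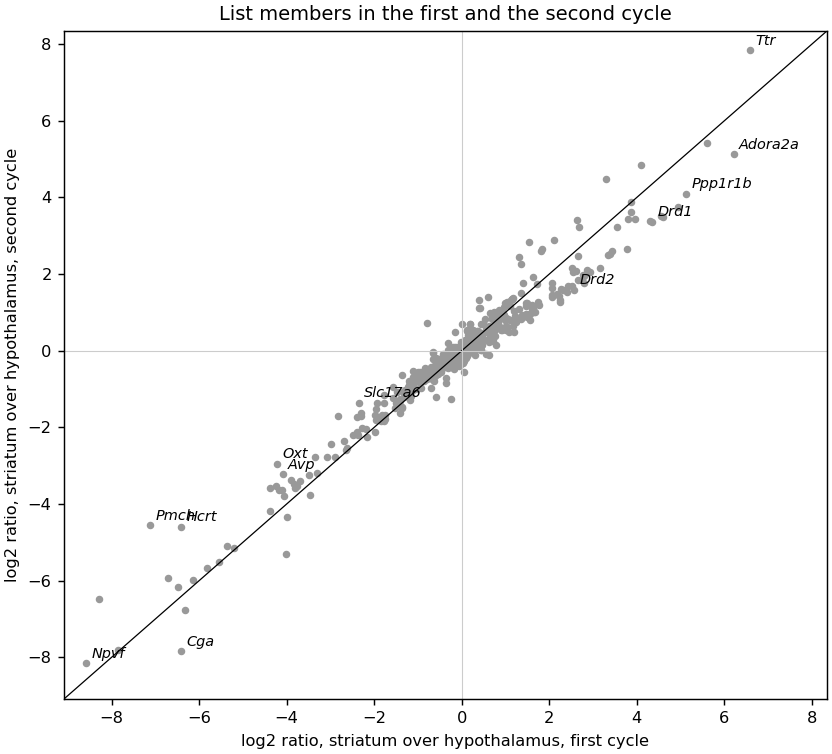
Log2 ratio of striatum over hypothalamus in the 31 mice of the first cycle (0 to 21 h) against the 24 mice of the second (24 to 36 h) for the list members tested; the line marks equality. Members lie along the line, with Ppp1r1b, Drd1 and Adora2a below it and Pmch and Hcrt above it, nearer 0 in the second cycle.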

How the data were processed

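Messenger RNA was sequenced from striatum and hypothalamus of the same mice. The deposited tables hold whole-number read counts per gene and FPKM values (fragments per length of transcript and depth) for 48795 gene identifiers. The labels name the genome as GRCm38 (mm10), and the submitters' processing notes name STAR 2.7.3a and HTSeq 0.10.0, with no role given. No label or header states the annotation release, the strand setting or how the authors made the deposited FPKM. Symbols and exonic overlap were taken from GENCODE M21, which placed 48349 identifiers. Counts per library were 28742584 to 50009419.

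Counts were tested with edgeR 4.0.16 (R 4.3.3): filterByExpr by tissue (minimum count 10, minimum total 15), TMM scaling, quasi-likelihood fit with mouse and tissue terms and a trended dispersion, and Benjamini-Hochberg adjustment over all genes tested, called under 0.05. The log2 ratio is striatum over hypothalamus, and its standard error is the ratio divided by the root of F. Permutation tests used scipy 1.17.1. On simulated counts of this paired design over 19028 genes, 52% of 100 genes changed by a log2 ratio of 0.25 and 100% of 96 changed by 1 were recovered, and 5.73% of calls were false. The simulation gave all genes and libraries of both tissues the same dispersion and changed few genes. In the data striatum spread more and most genes differed, so these rates do not carry over. FPKM served only to compare levels between genes.

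Pairing comes from the mouse code in the labels, which marks the same animal. Deviations of a mouse's 2 libraries from their tissue means correlated little (median 0.081, range -0.557 to 0.62, over 0.1 in 24 of 55 mice). Replicate numbers match in 4 of 55 mice. Where 1 mouse code was spelled differently between the tissues, the libraries stayed unpaired. Alternatives covered scaling, filter, tool, blocks, left-out libraries, cycles and times of day. Limits on projection neuron and choroid levels, the library that went against its label, robust estimation and ribosomal RNA share were added after seeing the data. The members and gene lists were chosen with earlier results of these data known. Genes were named from the lists, and from the 15 of largest ratio (2-fold calls, 10 CPM or more in the higher tissue) and the 10 of largest CPM difference in each direction. Promoters are from RefSeq (GRCm38.p6). Some genes of the lists are counted but not reported by name here.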

Additional observations from a re-analysis of the deposited data

Results flagged for a closer look

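Marker sums were examined in each group of 4 to 10 libraries of 1 tissue and ZT, and a library was noted where its gap to the nearest other exceeded Dixon's 95% limit for the group's range. Of 60 sets, each of 1 marker quantity in 1 group, 18 gave such a library. The limit's rate of 1 in 20 holds for independent sets of normally distributed values. Here the sets were unlogged CPM and shared libraries, so the 18 cannot be read against that rate. No explanation was tested for any of them.

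The same 3 striatum libraries stood apart in several marker sums. Striatum ZT0 replicate 4 held 332 CPM of Slc17a6, where the others of its group held 21.1 to 144 CPM, a thalamic sum of 537 CPM and a choroid plexus sum of 7466 CPM. Striatum ZT3 replicate 7 held 278 CPM of Slc17a6, a thalamic sum of 786 CPM and a choroid plexus sum of 10024 CPM. Striatum ZT9 replicate 9 held 328 CPM of Slc17a6, a thalamic sum of 617 CPM, a choroid plexus sum of 1499 CPM and a hypothalamic peptide sum of 733 CPM.

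Of the other striatum libraries, ZT18 replicate 2 was high in the choroid plexus sum (7285 CPM), ZT21 replicate 2 was low in the hypothalamic peptide sum (228 CPM), and ZT0 replicate 9 was high in the pituitary sum (17.5 CPM). Among hypothalamus libraries, ZT0 replicate 2 was high in the pituitary sum (834 CPM) and in the projection neuron sum (1420 CPM, the others of its group 1174 to 1242 CPM). Hypothalamus ZT21 replicate 2 was high in the pituitary sum (130 CPM), ZT18 replicate 5 in the peptide sum (3069 CPM) and ZT3 replicate 10 in the choroid plexus sum (74.4 CPM).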

How the results depend on the processing

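With no replicate block, which drops the pairing by mouse and takes in all 133 retained libraries, 7908 genes were higher and 6800 lower in striatum, 27 lay above and 92 below without overlap (a count that uses no mouse term and here spans more libraries), and 2 genes were called between the cycles. A block of ZT and replicate number gave 7564 higher and 6969 lower. With library totals alone 4496 genes were higher and 25 lay above. With no filter on low counts 1637 genes were higher and 2012 lower by 2-fold or more, and against a 2-fold null (glmTreat) 504 and 555. With the 4 left-out libraries 43 genes lay above. The counts above and below were 146 and 231 in the first cycle, 249 and 332 in the second, 116 and 207 at ZT0 to ZT9, 201 and 323 at ZT12 to ZT21, 117 and 201 without ZT6, and 331 and 257 without the mice of low projection neuron level (chosen after seeing the data). DESeq2 called 1 gene between the cycles.

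Of the named genes, ratios changed sign as follows, and the cause was not tested. Tac1 was -0.12 in the second cycle. Pdyn was 0.27 without the mice of low projection neuron level and 0.041 in the first cycle. At ZT12 to ZT21 Dlx1 was 0.005, Dlx2 0.048 and Nts 0.005. With no replicate block Nts was 0.004 and Ucn3 0.043. Tph2 and Rgs2 were -0.001 and -0.036 under library totals, and -0.018 and -0.10 in the second cycle. Clic6 was -0.07 under library totals, -0.36 without the mice of high choroid plexus level, -0.007 in the first cycle, -0.17 at ZT0 to ZT9 and -0.042 without ZT12. Of the named genes' other values, 5414 kept direction and side of the threshold, 46 lost the call and 30 gained it. The effect of depth on small ratios was not tested.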
